A study of Mus musculus with 12 samples.

Results

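The lungs and spleens of the same 3 integrin β3 knockout mice (β3-/-, ITGB3 KO in the labels) were compared gene by gene. The 6 KO libraries, 1 for each mouse and tissue, were taken out of 12 in the series, and the other 6 came from lung and spleen of 3 WT mice. All mice were C57BL/6, 8 to 10 weeks old, unstimulated as far as the labels say, and kept free of specific pathogens. The β3-/- mice were a gift and the WT mice were bought, so genotype and source cannot be told apart where KO and WT are set side by side, whereas the lung and the spleen of a KO mouse share animal, deletion and housing. Each library was made from RNA of the whole organ and deposited as FPKM, the number of sequenced fragments corrected for transcript length and library size, which is a level per length. Of 22116 genes and transcripts listed by ID in the files of both tissues, 15888 reached 0.1 FPKM in at least 3 of the 6 KO libraries and were tested. Per-library values are in the order of mice 1, 2 and 3.

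The lung exchanges gas across a sheet of flat alveolar type 1 cells laid over capillaries, and alveolar type 2 cells coat that sheet with surfactant, a film of lipid and protein that keeps alveoli open. The spleen filters blood: macrophages of its red pulp take up old red cells and recycle their iron, its white pulp holds B and T cell zones kept in place by stromal chemokines, and in mice it also makes red cells, platelets and granulocytes. Integrin β3 pairs with αIIb on platelets and megakaryocytes and with αv on endothelium, macrophages and other cells, and the study asked how its loss bears on B cells in the lung.

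Itgb3 itself (ENSMUSG00000020689, chr11:104498826-104561302, GRCm39) was still read in every KO library, at 1.94, 1.34 and 1.29 FPKM in KO lungs, against 3.57, 4.02 and 3.52 FPKM in KO spleens (log2 difference -1.25, SE 0.21, adjusted p = 0.0035). All 3 KO lungs lay below all 3 KO spleens, although with a pseudocount of 1 the log2 difference was -0.90, under the fold threshold. In WT mice Itgb3 had 3.68, 4.39 and 4.14 FPKM in WT lungs, against 10.6, 8.95 and 8.50 FPKM in WT spleens, so both KO tissues lay below their WT counterparts. The part of the transcript that the deletion removes is not given in the sources used here, and a value summed over a whole gene does not show whether that part was read.

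Lung and spleen were told apart by most of their defining genes. The 4 surfactant protein genes took 3.58, 4.05 and 4.41% of the FPKM in KO lungs, whereas the spleen transcription factor gene Tlx1 was listed at 0 in all 3 KO lungs, against 17.2, 21.8 and 21.8 FPKM in KO spleens. Pearson correlations of log2(FPKM + 0.1) over the tested genes ran from 0.964 to 0.978 among KO lungs, from 0.979 to 0.981 among KO spleens, and from 0.718 to 0.754 between the tissues. FPKM sums were 470647 to 489157 in KO lungs and 551345 to 593175 in KO spleens. KO lung 3 held transcripts of skeletal muscle, KO spleen 2 transcripts of exocrine pancreas, and KO spleen 3 transcripts of secretory glands and higher levels of granulocyte and platelet genes, and these values are given with the genes they touch.

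Across the 15888 genes, 3724 were higher in KO lungs than in KO spleens (23.4% of those tested) and 2753 were lower (17.3%). A gene was called a DEG at an absolute log2 difference above 1 with an adjusted p below 0.05, from limma on log2(FPKM + 0.1) with the mouse as a block and Benjamini-Hochberg adjustment over all genes. All 3 KO lungs lay above all 3 KO spleens in 5858 genes (36.9%) and below them in 5407 (34.0%). The median difference over all genes was 0.01, and it moved to 0.27, to -0.13 and to -0.15 when the values were rescaled to an equal sum per library, quantile normalized, or summed without immunoglobulin and globin genes. Among the DEGs, 2071 differed by over 2 on the log2 scale upward and 1261 downward, and 48 upward and 8 downward by over 8. In 305 genes all 3 KO lungs reached 1 FPKM while all 3 KO spleens stayed under 0.1 FPKM, against 41 genes with the opposite pattern. Since these are bulk libraries, fewer cells of a type and less RNA per cell cannot be told apart in any of the values, and levels were set across lung and spleen tables that the authors made separately.

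**Figure D1:**
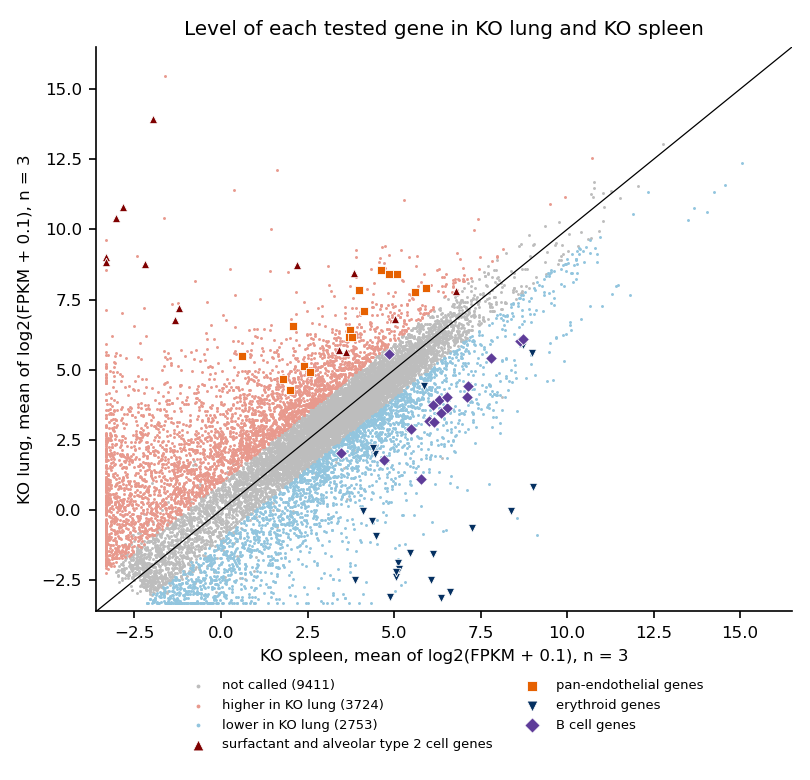
Mean level of each of the 15888 tested genes in KO lungs (vertical axis) and KO spleens (horizontal axis), both as log2(FPKM + 0.1) over 3 mice, with the line of equal level. The 3724 genes higher in KO lung lie above the line and the 2753 lower genes below it; type 2 cell and pan-endothelial genes (triangles, squares) stand above, erythroid and most B cell genes (inverted triangles, diamonds) below.

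A few gene classes made up much of each library. Scgb1a1 (ENSMUSG00000024653, chr19:9061000-9065326), the secretoglobin that club cells of the small airways release, alone took 11.2, 9.72 and 7.87% of the FPKM of KO lungs. Adult globin genes took 3.35, 2.24 and 2.44% in KO lungs, against 20.7, 11.3 and 16.6% in KO spleens. Immunoglobulin genes took 1.39, 1.12 and 1.67% in KO lungs, against 12.8, 13.8 and 12.8% in KO spleens. The globin and immunoglobulin shares of the KO spleens lay above all 3 KO lungs without overlap. Cytosolic ribosomal protein genes took 5.50, 5.84 and 6.38% in KO lungs and 9.76, 11.8 and 13.1% in KO spleens, and 65 of the 85 tested were lower in lung (a list added after the data were seen), a count that fell to 31 with values rescaled to an equal sum per library, to 25 with quantile normalization and to 39 without mouse 3. Mitochondrially encoded genes took 5.64, 6.15 and 6.97% in KO lungs and 3.23, 3.71 and 3.87% in KO spleens.

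**Figure D2:**
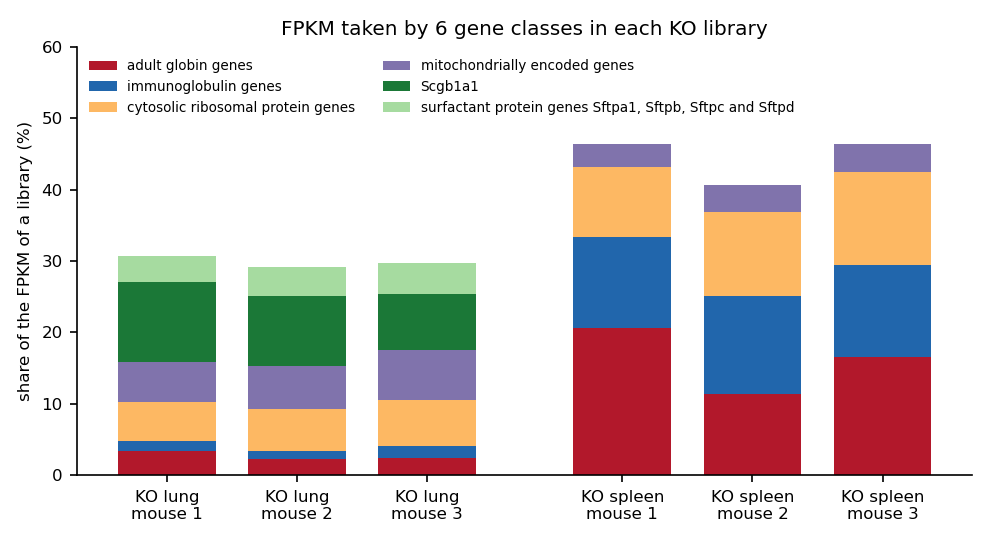
Share of the summed FPKM of each of the 6 KO libraries (vertical axis, percent) taken by 6 gene classes, stacked, with 3 KO lungs on the left and 3 KO spleens on the right. Scgb1a1 and surfactant protein genes fill part of each KO lung bar and none of the KO spleen bars, and globin with immunoglobulin genes fill the lower part of each KO spleen bar.

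The 12 largest increases in KO lung, among DEGs without overlap and with at least 10 FPKM in the higher tissue, were Scgb1a1, Sftpc, Sftpb, Sftpa1, Scgb3a2, Slc34a2, Cxcl15, Cyp2f2, Sec14l3, Wfdc2, Inmt and Sftpd, of which 11 are known from lung epithelium and Inmt, a methyltransferase of small amines, from lung fibroblasts. Among the 12 largest decreases, chosen in the same way and without immunoglobulin and T cell receptor genes, were Coch, Car1, Hemgn, Rhd, Slc4a1, Ahsp, Klf1, Cldn13, Elane, Mpo and Trim10. Coch (ENSMUSG00000020953, chr12:51639894-51653316), a secreted protein first known from the inner ear and found in the stroma of lymphoid organs, stood at 0.361, 0.613 and 0.370 FPKM in KO lungs, against 507, 582 and 586 FPKM in KO spleens (log2 difference -10.02, SE 0.14, adjusted p = 3.98e-06). Of the others named, Elane and Mpo encode granule enzymes of immature neutrophils and the rest are genes of red cell precursors, Cldn13, a claudin, among them with 0.153, 0 and 0 FPKM in KO lungs, against 72.2, 20.4 and 24.0 FPKM in KO spleens. In both genes every KO lung stayed under 1 FPKM, and every KO spleen passed 20 FPKM.

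Surfactant and alveolar type 2 cell genes were higher in KO lung in 14 of 14 cases, with a median log2 difference of 8.25, and 7.32 without the 2 members listed at 0 in every KO spleen. Sftpc, which encodes the small hydrophobic surfactant protein C made only by type 2 cells, had 14093, 15984 and 17034 FPKM in KO lungs, against 0.261, 0.113 and 0.124 FPKM in KO spleens (log2 difference 15.89, SE 0.21, adjusted p = 3.20e-06). Sftpb, whose product spreads surfactant lipid, had 1718, 1858 and 1780.2 FPKM in KO lungs, against 0, 0.0397 and 0.0943 FPKM in KO spleens (log2 difference 13.64, SE 0.18, adjusted p = 3.35e-06). Sftpa1, a collectin that also binds microbes, had 1263, 1353 and 1441 FPKM in KO lungs, against 0, 0.0184 and 0.0581 FPKM in KO spleens (log2 difference 13.42, SE 0.13, adjusted p = 2.11e-06). The 3 KO lungs were close together in each gene and stood above every KO spleen. The phosphate transporter gene Slc34a2 had 480.4, 508 and 566 FPKM in KO lungs and was listed at 0 in all 3 KO spleens. Cxcl15, a chemokine of lung epithelium, had 412, 507 and 464 FPKM in KO lungs and was listed at 0 in all 3 KO spleens. The smallest difference of the list belonged to Napsa, a protease that processes surfactant protein B, at 201, 240.3 and 228 FPKM in KO lungs, against 101, 123 and 106 FPKM in KO spleens (log2 difference 1.02, SE 0.09, adjusted p = 3.19e-04), and without mouse 3 it was 0.98, under the fold threshold.

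The promoters of 2 surfactant genes are shown because they carry the core motif CTCAAG of NKX2-1, the transcription factor of lung epithelium whose own gene Nkx2-1 had 47.0, 43.9 and 46.7 FPKM in KO lungs and was listed at 0 in all 3 KO spleens. Each is the 250 bases before the start site in RefSeq (GRCm38.p6), 5′ to 3′ in the direction of the gene, with CTCAAG or its complement in capitals, for Sftpb at chr6:72304360-72304609 (plus strand) and for Sftpa1 at chr14:41131538-41131787 (plus strand).
Sftpb: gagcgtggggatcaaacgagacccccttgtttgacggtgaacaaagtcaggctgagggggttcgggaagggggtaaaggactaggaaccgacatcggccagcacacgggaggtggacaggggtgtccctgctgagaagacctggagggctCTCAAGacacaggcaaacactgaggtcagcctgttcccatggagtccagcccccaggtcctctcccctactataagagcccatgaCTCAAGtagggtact
Sftpa1: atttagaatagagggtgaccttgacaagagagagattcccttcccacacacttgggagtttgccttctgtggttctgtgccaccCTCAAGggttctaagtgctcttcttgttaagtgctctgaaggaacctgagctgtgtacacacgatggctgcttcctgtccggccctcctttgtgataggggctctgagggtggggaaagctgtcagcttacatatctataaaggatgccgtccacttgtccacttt
In Sftpb the motif began 100 and 15 bases before the start site and in Sftpa1 166 bases before it. Over both strands of windows that run from 250 bases before to 50 after the start, CTCAAG stood in 4 of the 12 windows found for 11 type 2 cell genes (33.3%) and in 15.9% of all 32851 windows, which is a match of letters and no evidence of binding.

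Alveolar type 1 cell genes rose in 12 of 12 cases (median 6.33, smallest 3.06). Ager, a receptor for glycated proteins carried on the basal side of type 1 cells, had 1015, 1149 and 973 FPKM in KO lungs, against 2.95, 2.80 and 2.23 FPKM in KO spleens (log2 difference 8.57, SE 0.10, adjusted p = 2.51e-06). Aqp5, a water channel, had 130.4, 187 and 130.1 FPKM in KO lungs, against 0, 0.0210 and 0.686 FPKM in KO spleens (log2 difference 9.44, SE 0.64, adjusted p = 1.11e-04). Hopx, a transcriptional cofactor, had 674, 666 and 523 FPKM in KO lungs, against 14.6, 16.2 and 14.0 FPKM in KO spleens (log2 difference 5.37, SE 0.10, adjusted p = 8.51e-06). The KO lungs stood above the KO spleens in all 12 genes of the list. KO spleen 3, with 0.686 FPKM of Aqp5, was the highest of the spleens there.

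Genes of airway secretory cells were all higher in KO lung (11 of 11, median 7.92, and 11.29 without the 7 members at 0 in every KO spleen). Scgb1a1 had 54903, 47173 and 36964 FPKM in KO lungs, against 0.456, 0.511 and 0 FPKM in KO spleens (log2 difference 17.11, SE 0.43, adjusted p = 1.10e-05). Scgb3a2, another secretoglobin of club cells, had 1175, 869 and 476 FPKM in KO lungs and was listed at 0 in all 3 KO spleens. Cyp2f2, an oxidase of club cells, had 1895, 1465 and 936 FPKM in KO lungs, against 0.164, 0 and 1.14 FPKM in KO spleens (log2 difference 12.07, SE 0.78, adjusted p = 9.74e-05). In each of these 3 genes KO lung 1 was the highest and KO lung 3 the lowest of the lungs. The spread was wider for genes of mucous and larger airways: Scgb3a1 had 82.0, 23.2 and 7.25 FPKM and Bpifa1, a secreted antimicrobial protein of the upper airways, 47.3, 4.63 and 2.40 FPKM in KO lungs, again with KO lung 1 highest.

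Ciliated cell genes rose in 15 of 16 cases (median 4.32). Foxj1, the transcription factor of motile cilia, had 28.4, 21.8 and 14.0 FPKM in KO lungs, against 0.170, 0.178 and 0.115 FPKM in KO spleens (log2 difference 6.35, SE 0.21, adjusted p = 1.91e-05). Dynlrb2, a dynein light chain, had 55.7, 51.4 and 39.3 FPKM in KO lungs, against 0, 0.0871 and 0 FPKM in KO spleens (log2 difference 8.62, SE 0.25, adjusted p = 1.45e-05). Tekt1, a filament protein inside the ciliary microtubules, had 17.9, 9.95 and 6.67 FPKM in KO lungs, against 0.0379, 0 and 0 FPKM in KO spleens (log2 difference 6.59, SE 0.27, adjusted p = 2.88e-05). All 3 followed the order of the secretory genes over the KO lungs, highest in mouse 1 and lowest in mouse 3. Rfx3, a transcription factor of ciliary genes that other cells also use, missed the test at 1.95, 1.74 and 1.29 FPKM in KO lungs, against 1.26, 1.53 and 0.989 FPKM in KO spleens (log2 difference 0.37, SE 0.21, adjusted p = 0.167).

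The promoter of Tekt1 is shown for the RFX motif GTTGCC, in capitals with its complement GGCAAC, in the 250 bases before the start site at chr11:72361883-72362132 (GRCm38.p6, minus strand).
Tekt1: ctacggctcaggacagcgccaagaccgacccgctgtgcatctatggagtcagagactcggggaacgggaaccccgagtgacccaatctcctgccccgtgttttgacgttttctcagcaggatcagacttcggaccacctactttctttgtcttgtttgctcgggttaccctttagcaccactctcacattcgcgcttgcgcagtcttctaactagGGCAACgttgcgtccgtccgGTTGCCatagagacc
The matches lay 35 and 15 bases before the start site. GTTGCC was found in 6 of 15 windows of 12 ciliated cell genes (40.0%) and in 12.5% of all windows, over both strands.

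Junction and keratin genes of epithelium rose in 13 of 13 cases (median 6.06). Cldn18, a tight junction claudin with a lung form, had 133, 150.5 and 134 FPKM in KO lungs and was listed at 0 in all 3 KO spleens. Cdh1, the epithelial cadherin, had 69.9, 70.0 and 63.4 FPKM in KO lungs, against 0.526, 0.861 and 0.964 FPKM in KO spleens (log2 difference 6.3, SE 0.20, adjusted p = 1.73e-05). Oxidative and conjugating enzymes, several of which club cells use on inhaled compounds, rose in 15 of 15 cases (median 5.88). Aldh1a1, a retinaldehyde dehydrogenase, had 858, 647 and 538 FPKM in KO lungs, against 36.0, 17.5 and 25.5 FPKM in KO spleens (log2 difference 4.72, SE 0.17, adjusted p = 2.28e-05). Fmo2, a flavin monooxygenase of lung, had 401, 344 and 359 FPKM in KO lungs, against 0.815, 3.58 and 5.69 FPKM in KO spleens (log2 difference 7.09, SE 0.52, adjusted p = 1.52e-04). Transcription factors that pattern the lung rose in 14 of 16 cases (median 6.67). Foxf1 of the lung mesenchyme had 211, 207 and 194 FPKM in KO lungs, against 0.882, 1.53 and 1.33 FPKM in KO spleens (log2 difference 7.28, SE 0.17, adjusted p = 1.10e-05). Tbx4, which sets lung bud growth, had 34.3, 31.9 and 38.9 FPKM in KO lungs and was listed at 0 in all 3 KO spleens. The exceptions were Tcf21, a mesenchymal factor that spleen development also needs, at 63.4, 69.4 and 56.2 FPKM in KO lungs and 47.5, 54.4 and 68.2 FPKM in KO spleens (adjusted p = 0.397), and Sox9, at no more than 0.245 FPKM in any of the 6 libraries.

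Endothelial genes were higher in KO lung throughout: 16 of 16 pan-endothelial genes (median 2.79) and 14 of 14 genes of lung capillaries (median 4.49). Cdh5, the cadherin of endothelial junctions, had 226, 225 and 229 FPKM in KO lungs, against 14.7, 16 and 16.3 FPKM in KO spleens (log2 difference 3.85, SE 0.09, adjusted p = 1.10e-05). Pecam1, an adhesion molecule that platelets and leukocytes also carry, differed least, with 229, 254 and 247 FPKM in KO lungs, against 55.9, 65.5 and 60.02 FPKM in KO spleens (log2 difference 2.01, SE 0.09, adjusted p = 3.18e-05). Car4, a carbonic anhydrase on the surface of alveolar capillaries, had 165, 179 and 142 FPKM in KO lungs, against 0.241, 0.200 and 0.425 FPKM in KO spleens (log2 difference 8.74, SE 0.23, adjusted p = 1.32e-05). Tmem100, a small membrane protein of endothelium, had 393, 414 and 352 FPKM in KO lungs, against 1.47, 0.776 and 1.18 FPKM in KO spleens (log2 difference 8.32, SE 0.19, adjusted p = 1.10e-05). Each of these 30 genes separated the 3 KO lungs from the 3 KO spleens.

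Genes of vascular tone rose in 15 of 17 cases (median 2.76). Ace, which turns angiotensin I into the vasoconstrictor angiotensin II on the lung endothelium, had 260.2, 276 and 249 FPKM in KO lungs, against 7.33, 10.1 and 8.34 FPKM in KO spleens (log2 difference 4.92, SE 0.11, adjusted p = 1.07e-05). Edn1, the endothelin-1 gene, had 49.9, 41.0 and 47.5 FPKM in KO lungs, against 2.07, 2.03 and 1.23 FPKM in KO spleens (log2 difference 4.66, SE 0.19, adjusted p = 2.93e-05). Bmpr2, a receptor whose loss causes pulmonary hypertension in humans, had 66.3, 60.8 and 60.3 FPKM in KO lungs, against 2.90, 3.71 and 3.21 FPKM in KO spleens (log2 difference 4.22, SE 0.13, adjusted p = 1.57e-05). Agtr1a, the angiotensin II receptor, had 14.4, 12.4 and 12.8 FPKM in KO lungs, against 15.9, 15.1 and 15.9 FPKM in KO spleens, not past the test (adjusted p = 0.0772). Nos3, the endothelial nitric oxide synthase, had 4.46, 4.39 and 5.08 FPKM in KO lungs, against 2.94, 2.76 and 2.35 FPKM in KO spleens (log2 difference 0.77, SE 0.18, adjusted p = 0.0112), short of the fold threshold. In Ace, Edn1 and Bmpr2 the KO lungs lay far above the KO spleens and in Agtr1a all 3 lay slightly below them.

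Fibroblast and matrix genes rose in 22 of 25 cases (median 2.04). Inmt had 2872, 3053 and 2269 FPKM in KO lungs, against 2.35, 0.176 and 3.21 FPKM in KO spleens (log2 difference 11.02, SE 0.74, adjusted p = 1.12e-04), with KO spleen 2 the lowest library. Mgp, an inhibitor of calcification, had 2069, 2233 and 1996 FPKM in KO lungs, against 24.0, 29.8 and 84.3 FPKM in KO spleens (log2 difference 5.74, SE 0.37, adjusted p = 9.50e-05), with KO spleen 3 the highest of the spleens. Dcn, Col1a1 and Col1a2, a proteoglycan and the chains of type I collagen, lay above the spleens in all 3 KO lungs with log2 differences of 0.95, 0.99 and 0.73, under the fold threshold. Contractile genes were mixed: 10 of 15 smooth muscle and pericyte genes were higher, 1 was lower (median 1.14). Cox4i2, the lung isoform of a cytochrome oxidase subunit, had 67.5, 74.0 and 55.6 FPKM in KO lungs, against 1.53, 1.11 and 1.31 FPKM in KO spleens (log2 difference 5.54, SE 0.16, adjusted p = 1.49e-05). Acta2, smooth muscle actin, was called lower at 33.9, 25.2 and 120.2 FPKM in KO lungs, against 103, 119.6 and 114 FPKM in KO spleens (log2 difference -1.26, SE 0.42, adjusted p = 0.0432), yet KO lung 3 overlapped the spleens. Without mouse 1 the adjusted p of Acta2 was 0.166 and without mouse 2 it was 0.219. KO lung 3 also held skeletal muscle transcripts, which summed to 3.78, 7.84 and 1163 FPKM over the 3 KO lungs, and whose part in the Acta2 value was not tested.

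Genes that mark spleen stroma and sinuses were lower in KO lung in 11 of 13 cases (median -3.95, and -2.27 without 3 members at 0 in every KO lung). Cxcl13, the chemokine that draws B cells into follicles, had 5.51, 2.48 and 10.1 FPKM in KO lungs, against 149, 194 and 149.6 FPKM in KO spleens (log2 difference -4.95, SE 0.42, adjusted p = 2.58e-04). Ccl19, which draws T cells and dendritic cells, had 1.4, 1.09 and 3.72 FPKM in KO lungs, against 62.7, 83.5 and 72.7 FPKM in KO spleens (log2 difference -5.26, SE 0.34, adjusted p = 1.02e-04). Ccl21a, made by lymphatic vessels as well as by spleen stroma, differed less, with 122, 121 and 93.2 FPKM in KO lungs, against 311, 403 and 290.0 FPKM in KO spleens (log2 difference -1.57, SE 0.12, adjusted p = 1.49e-04). KO lung 3 was the highest lung for Cxcl13 and Ccl19, and all lungs stayed below all spleens. Among the 2 members on the other side was Lyve1, a hyaluronan receptor of lymphatic vessels, at 133, 118 and 85.3 FPKM in KO lungs, against 0.731, 0.670 and 2.04 FPKM in KO spleens (log2 difference 6.64, SE 0.41, adjusted p = 8.53e-05). Of 10 spleen patterning factors tested, 7 were lower and 2 higher, Hoxa3 among them. Tlx1, without which mice form no spleen, and Nkx2-3, which organizes its vessels, were listed at 0 in all KO lungs, against 17.2, 21.8 and 21.8 FPKM and 8.12, 9.07 and 10.6 FPKM in KO spleens.

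**Figure D3:**
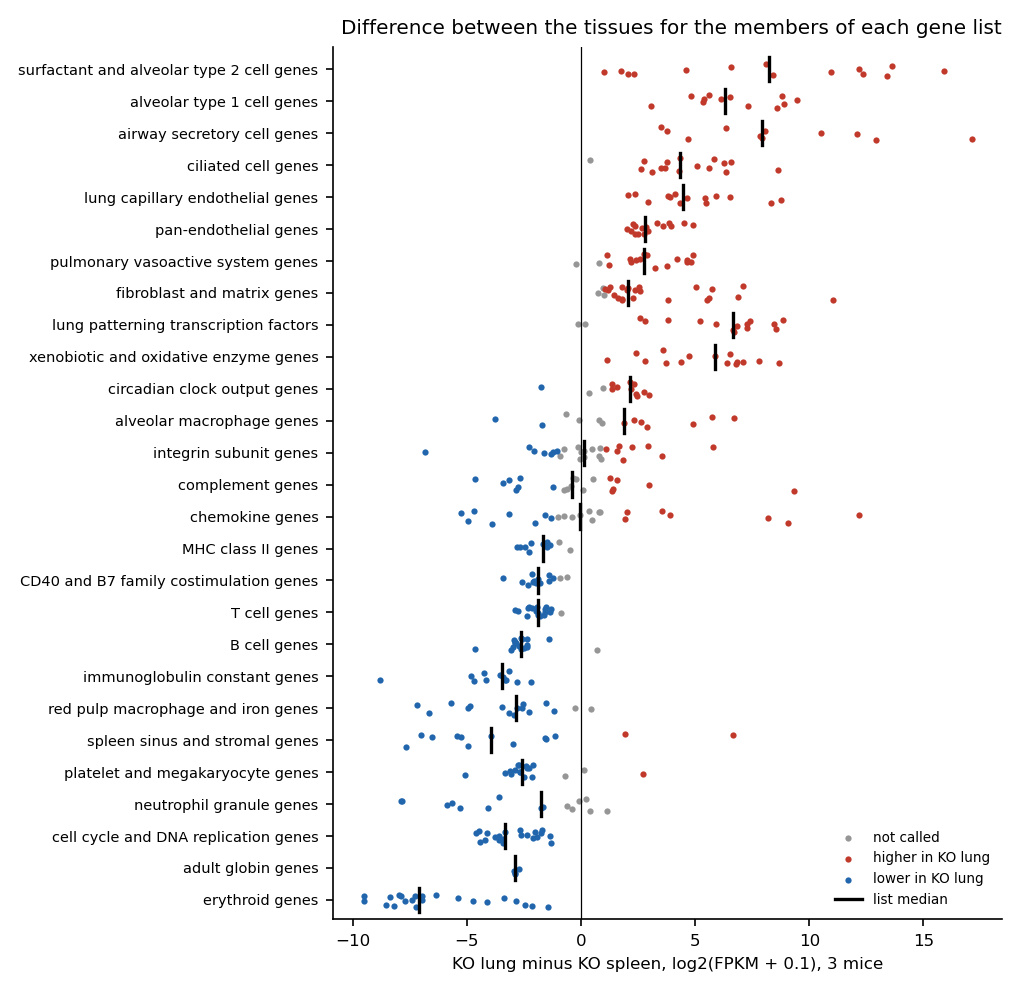
Log2 difference, KO lung minus KO spleen (horizontal axis, fitted over 3 mice), of each tested member of 27 gene lists (rows), with called members in red and blue, others in grey and list medians as black bars. Epithelial, endothelial and matrix lists lie to the right of 0, erythroid, cell cycle, immunoglobulin and B and T cell lists to the left, and integrin, complement and chemokine lists on both sides; members listed at 0 in one tissue are drawn at their fitted value.

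Macrophage genes split by organ. Red pulp macrophage and iron genes were lower in KO lung in 14 of 16 cases (median -2.87). Slc40a1, ferroportin, which exports iron, had 6.77, 7.64 and 8.71 FPKM in KO lungs, against 198, 256 and 227 FPKM in KO spleens (log2 difference -4.86, SE 0.10, adjusted p = 1.07e-05). Spic, the transcription factor of red pulp macrophages, had 0.681, 0.237 and 0.553 FPKM in KO lungs, against 51.8, 59.6 and 60.7 FPKM in KO spleens (log2 difference -6.69, SE 0.28, adjusted p = 2.99e-05). Vcam1, an adhesion molecule on these macrophages and on stroma, had 20.4, 25.2 and 26.7 FPKM in KO lungs, against 270.1, 258 and 279 FPKM in KO spleens (log2 difference -3.48, SE 0.11, adjusted p = 1.73e-05), and the groups did not overlap in any of the 3 genes. The heme oxygenase gene Hmox1 had 59.9, 61.8 and 51.2 FPKM in KO lungs, against 366, 414 and 421 FPKM in KO spleens (log2 difference -2.80, SE 0.12, adjusted p = 2.89e-05). Cd5l, a secreted macrophage protein, had 0.0226, 0.209 and 6.01 FPKM in KO lungs, against 87.6, 91.7 and 92.8 FPKM in KO spleens (log2 difference -7.21, SE 1.02, adjusted p = 0.0018), with KO lung 3 apart from the other lungs. The ferritin chains Fth1 and Ftl1, the most abundant of the list, missed the test, with 2401, 2400.2 and 2063 FPKM in KO lungs, against 1849, 1576 and 1719.7 FPKM in KO spleens for Fth1 (log2 difference 0.42, SE 0.19, adjusted p = 0.0998) and -0.27 (adjusted p = 0.255) as the log2 difference of Ftl1.

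Alveolar macrophage genes were less uniform: 7 of 13 were higher in KO lung and 2 lower (median 1.87). Chil3, a chitinase-like secreted protein, had 302, 373 and 455 FPKM in KO lungs, against 58.6, 39.1 and 186 FPKM in KO spleens (log2 difference 2.30, SE 0.35, adjusted p = 0.0024). Plet1, a surface protein of alveolar macrophages and some epithelia, had 28.6, 32.7 and 34.9 FPKM in KO lungs, against 0, 0.224 and 0.787 FPKM in KO spleens (log2 difference 6.71, SE 0.52, adjusted p = 1.82e-04). Atp6v0d2, a proton pump subunit, had 12.4, 13.7 and 19.7 FPKM in KO lungs, against 0.342, 0.454 and 0.403 FPKM in KO spleens (log2 difference 4.92, SE 0.20, adjusted p = 2.88e-05). Siglecf, a lectin of eosinophils and alveolar macrophages, had 4.14, 5.03 and 7.06 FPKM in KO lungs, against 0.718, 0.607 and 1.05 FPKM in KO spleens (log2 difference 2.62, SE 0.20, adjusted p = 1.57e-04). All 4 genes separated the tissues, although KO spleen 3 came nearest to the lungs in Chil3. Marco, a scavenger receptor of alveolar macrophages that marginal zone macrophages of the spleen also carry, was lower, with 4.74, 6.99 and 11.7 FPKM in KO lungs, against 91.8, 105 and 104 FPKM in KO spleens (log2 difference -3.77, SE 0.21, adjusted p = 6.41e-05). Fabp4, a fatty acid carrier of alveolar macrophages and adipocytes, was lower too, with 35.5, 5.84 and 17 FPKM in KO lungs, against 65.9, 17 and 114 FPKM in KO spleens (log2 difference -1.72, SE 0.34, adjusted p = 0.0064), but the groups overlapped, and Adipoq of adipocytes ranked the 3 libraries of each tissue in a like order, highest in mouse 1 among lungs and in mouse 3 among spleens. Ear1 and Ear2, eosinophil-associated ribonucleases, had log2 differences of 0.79 and 0.91, short of a call.

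Monocyte and dendritic cell genes were mostly lower in KO lung (9 of 15, 1 higher, median -1.35). Lyz2, lysozyme of macrophages and type 2 cells, was the higher gene, at 5437, 6158 and 6420.1 FPKM in KO lungs, against 1532, 1815 and 1701 FPKM in KO spleens (log2 difference 1.83, SE 0.21, adjusted p = 8.11e-04). Csf1r, the receptor that macrophages need to live, had 34.4, 40.1 and 39.4 FPKM in KO lungs, against 157, 157 and 192 FPKM in KO spleens (log2 difference -2.15, SE 0.10, adjusted p = 3.67e-05). Of 20 complement genes 6 were higher and 7 lower (median -0.41), beside 23.4% and 17.3% of all tested genes. The C1q chains, which macrophages make, were lower, C1qa with 35.8, 33.9 and 57.3 FPKM in KO lungs, against 267, 254 and 323 FPKM in KO spleens (log2 difference -2.76, SE 0.12, adjusted p = 3.07e-05). Serping1, the C1 inhibitor, was higher, with 333, 327 and 334 FPKM in KO lungs, against 116, 137 and 135 FPKM in KO spleens (log2 difference 1.36, SE 0.10, adjusted p = 1.76e-04). Hc, complement C5, had 68.5, 75.0 and 77.7 FPKM in KO lungs, against 0.0188, 0.0241 and 0 FPKM in KO spleens (log2 difference 9.34, SE 0.18, adjusted p = 8.72e-06). Cr2, the complement receptor of B cells and follicular dendritic cells, had 2.67, 1.53 and 2.18 FPKM in KO lungs, against 45.3, 68.2 and 54.3 FPKM in KO spleens (log2 difference -4.67, SE 0.26, adjusted p = 6.07e-05). Cr2 thus lay on the same side as C1qa and opposite to Serping1 and Hc.

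Genes of red cell precursors had the lowest median of the lists examined: 22 of 22 were lower in KO lung (median -7.10), and in all 22 every KO lung lay below every KO spleen. Slc4a1 (ENSMUSG00000006574, chr11:102239650-102257029), the anion exchanger of the red cell membrane, had 1.52, 0.720 and 0.628 FPKM in KO lungs, against 560.3, 221 and 292 FPKM in KO spleens (log2 difference -8.39, SE 0.14, adjusted p = 5.24e-06). Ahsp, which keeps free alpha globin soluble, had 2.32, 1.11 and 1.85 FPKM in KO lungs, against 878, 305 and 524 FPKM in KO spleens (log2 difference -8.19, SE 0.13, adjusted p = 5.20e-06). Klf1, the transcription factor of erythroid genes, had 0, 0.0558 and 0 FPKM in KO lungs, against 62.0, 19.1 and 21.9 FPKM in KO spleens (log2 difference -8.00, SE 0.45, adjusted p = 6.41e-05). KO spleen 1 was the highest library in each gene and no KO lung came near a spleen. The smallest difference was that of Tfrc, the transferrin receptor that many dividing cells use, with 21.8, 22 and 19.99 FPKM in KO lungs, against 104, 45.9 and 41.2 FPKM in KO spleens (log2 difference -1.45, SE 0.25, adjusted p = 0.0041).

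Globin genes had a median log2 difference of -2.90, against -7.10 for the erythroid list, and the difference between the lists was not tested. Hbb-bs, the main adult beta globin, had 6855, 4519 and 4639.5 FPKM in KO lungs, against 46792, 24418 and 34680.0 FPKM in KO spleens (log2 difference -2.70, SE 0.39, adjusted p = 0.002). Hba-a1, alpha globin, had 3870.3, 2682 and 2819.6 FPKM in KO lungs, against 32234, 16078 and 26807 FPKM in KO spleens (log2 difference -2.96, SE 0.34, adjusted p = 7.75e-04). All 4 globin genes were called, although without mouse 2 only 1 was, and the adjusted p of Hbb-bs was 0.149 without mouse 2 and 0.0522 without mouse 1. In both genes KO spleen 1 was highest and all KO lungs lay below all KO spleens. The alpha copies Hba-a1 and Hba-a2, like the beta copies Hbb-bs and Hbb-bt, are near identical, so how the counting split their reads is uncertain. Hbb-bs thus stood at 4519 FPKM or more in KO lungs in which Slc4a1 and Klf1 stayed under 2 FPKM. Of 9 heme synthesis genes 7 were lower (median -2.20). Alas2, the erythroid form of the first enzyme of heme synthesis, had 61.6, 43.0 and 43.4 FPKM in KO lungs, against 706, 359 and 529 FPKM in KO spleens (log2 difference -3.39, SE 0.13, adjusted p = 2.71e-05). Alas1, the form of the same enzyme used outside red cells, went the other way, with 215, 129.7 and 115 FPKM in KO lungs, against 13.7, 14.8 and 15.9 FPKM in KO spleens (log2 difference 3.31, SE 0.22, adjusted p = 1.02e-04).

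The promoters of Hbb-bs and Alas2 are shown for the letters that erythroid factors are known to read: AGATAA for GATA factors and CCACACCC for KLF1, in capitals on either strand, in the 250 bases before the start site (GRCm38.p6), at chr7:103827929-103828178 (minus strand) for Hbb-bs and at chrX:150547167-150547416 (plus strand) for Alas2.
Hbb-bs: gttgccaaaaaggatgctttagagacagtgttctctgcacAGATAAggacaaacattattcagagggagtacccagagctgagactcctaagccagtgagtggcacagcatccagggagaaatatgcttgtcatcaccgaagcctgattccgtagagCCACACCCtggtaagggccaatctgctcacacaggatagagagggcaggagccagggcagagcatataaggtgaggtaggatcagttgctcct
Alas2: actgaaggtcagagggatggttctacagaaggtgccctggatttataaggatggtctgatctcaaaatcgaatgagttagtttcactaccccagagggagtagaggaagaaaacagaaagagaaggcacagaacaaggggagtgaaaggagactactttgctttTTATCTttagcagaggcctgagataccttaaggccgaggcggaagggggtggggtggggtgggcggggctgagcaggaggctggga
In Hbb-bs AGATAA began 210 and CCACACCC 93 bases before the start site, and in Alas2 the complement TTATCT of AGATAA began 86 bases before it. AGATAA stood in 8 of 17 windows of 15 erythroid genes (47.1%), in 1 of 4 globin windows (25.0%) and in 11.2% of all windows. CCACACCC stood in none of the 17 erythroid windows, in 1 of 4 globin windows (25.0%) and in 3.56% of all windows, and its absence says only that these letters are not in this stretch.

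Cell cycle and DNA replication genes were lower in KO lung in 21 of 21 cases (median -3.34). Mki67, a protein of dividing cells, had 1.27, 1.17 and 0.978 FPKM in KO lungs, against 48.6, 23.4 and 23.6 FPKM in KO spleens (log2 difference -4.61, SE 0.21, adjusted p = 3.56e-05). Rrm2, the ribonucleotide reductase subunit of S phase, had 3.57, 3.99 and 3.81 FPKM in KO lungs, against 124, 53.1 and 46.2 FPKM in KO spleens (log2 difference -4.12, SE 0.31, adjusted p = 1.56e-04). Pcna, the sliding clamp of replication that is also used in repair, had 55.3, 55.8 and 51.0 FPKM in KO lungs, against 188, 119.5 and 107 FPKM in KO spleens (log2 difference -1.31, SE 0.16, adjusted p = 9.65e-04). As with the erythroid genes, KO spleen 1 was the highest library in all 3.

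Platelet and megakaryocyte genes were lower in KO lung in 15 of 18 cases (median -2.60). Ppbp, the platelet chemokine, had 42.4, 29.5 and 36.9 FPKM in KO lungs, against 285, 198 and 851 FPKM in KO spleens (log2 difference -3.34, SE 0.37, adjusted p = 6.56e-04). Itga2b, the αIIb partner of β3, had 6.61, 5.93 and 7.96 FPKM in KO lungs, against 26.7, 19.1 and 72.9 FPKM in KO spleens (log2 difference -2.28, SE 0.29, adjusted p = 0.0012). KO spleen 3 was the highest library for both, well above the other spleens. Vwf, which endothelium makes as well as megakaryocytes, was the only member called higher, at 63.0, 48.6 and 44.5 FPKM in KO lungs, against 5.82, 4.80 and 16.1 FPKM in KO spleens (log2 difference 2.73, SE 0.39, adjusted p = 0.0019).

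Of 15 granule genes 9 were lower in KO lung and 0 higher (median -1.77), and without mouse 3 there were 7 lower and 1 higher, Lcn2, with a median of -0.98. Elane, elastase of the primary granules that early precursors make, had 0.116, 0.126 and 0 FPKM in KO lungs, against 25.9, 17.7 and 136 FPKM in KO spleens (log2 difference -7.87, SE 0.79, adjusted p = 4.59e-04). Mpo, myeloperoxidase of the same granules, had 0, 0.104 and 0.0956 FPKM in KO lungs, against 26.3, 16.1 and 116 FPKM in KO spleens (log2 difference -7.86, SE 0.54, adjusted p = 1.16e-04). Camp, of the secondary granules, had 2.05, 0.970 and 3.23 FPKM in KO lungs, against 75.3, 42.5 and 297 FPKM in KO spleens (log2 difference -5.64, SE 0.27, adjusted p = 4.08e-05). For S100a8, a calcium binding protein that mature neutrophils hold in bulk, the values were 62.0, 102 and 101 FPKM in KO lungs, against 189.7, 129.9 and 1031 FPKM in KO spleens (log2 difference -1.77, SE 0.53, adjusted p = 0.0301). Retnlg, also of mature neutrophils, had 46.0, 41.2 and 52.3 FPKM in KO lungs, against 30.9, 28.7 and 68.6 FPKM in KO spleens and overlapped between the tissues (adjusted p = 0.352). KO spleen 3 was the highest library in each of these 5 genes, and without mouse 3 the log2 difference of S100a8 was -0.98, under the fold threshold, and without mouse 1 its adjusted p was 0.0916. Lcn2, made by epithelium too, had 192, 222 and 164 FPKM in KO lungs, against 73.7, 36.5 and 239.6 FPKM in KO spleens and overlapped. Mast cell and basophil genes went both ways, 2 of 10 higher (Kit and Hdc) and 3 lower, beside 23.4% and 17.3% of all tested genes. Their median of -0.80 turned to 0.07 when 1 FPKM was required.

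B cell genes were lower in KO lung in 16 of 17 cases (median -2.63). Cd79a, a signaling chain of the B cell receptor, had 61.5, 84.2 and 52.7 FPKM in KO lungs, against 369, 472 and 375 FPKM in KO spleens (log2 difference -2.63, SE 0.11, adjusted p = 2.88e-05). Ms4a1, which encodes CD20, had 17, 18.7 and 13.9 FPKM in KO lungs, against 126, 182 and 115 FPKM in KO spleens (log2 difference -3.06, SE 0.11, adjusted p = 2.17e-05). In both genes mouse 2 had the highest lung and the highest spleen. Vpreb3, a protein of B cell precursors, was the exception, at 71.5, 50.4 and 29.2 FPKM in KO lungs, against 28.8, 36.9 and 22.5 FPKM in KO spleens (log2 difference 0.71, SE 0.20, adjusted p = 0.0232). Of 9 germinal centre genes 6 were lower and 2 higher. Gcsam, a signaling adaptor of germinal centre B cells, had 1.08, 0.666 and 0.617 FPKM in KO lungs, against 5.45, 5.51 and 9.63 FPKM in KO spleens (log2 difference -2.96, SE 0.32, adjusted p = 6.01e-04). The tissues did not overlap in Gcsam. The higher ones were Fas, a death receptor of many cell types, and S1pr2, a sphingosine phosphate receptor also found on endothelium.

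Plasma cell and immunoglobulin genes were lower in KO lung, though far from absent there. Jchain (ENSMUSG00000067149, chr5:88667668-88675750), which joins the chains of IgA and IgM, had 218, 182 and 234 FPKM in KO lungs, against 2474, 2418 and 2628 FPKM in KO spleens (log2 difference -3.57, SE 0.13, adjusted p = 2.40e-05). Mzb1, a chaperone of antibody secretion, had 15.7, 16.4 and 11.8 FPKM in KO lungs, against 155, 150.5 and 152 FPKM in KO spleens (log2 difference -3.39, SE 0.12, adjusted p = 2.26e-05). Of 13 plasma cell genes 8 were lower and 1 higher. The higher one was Sdc1, the CD138 antigen that epithelium carries too, at 77.2, 84.8 and 75.7 FPKM in KO lungs, against 10.9, 10.2 and 10.6 FPKM in KO spleens (log2 difference 2.90, SE 0.10, adjusted p = 1.91e-05). Xbp1, a factor of secretory cells of many kinds, had 118, 122 and 112 FPKM in KO lungs, against 135, 128 and 127 FPKM in KO spleens (adjusted p = 0.194).

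All 12 of 12 immunoglobulin constant genes were lower (median -3.49). Igkc, the kappa light chain, had 1670.3, 1348 and 1703 FPKM in KO lungs, against 17286, 17444 and 16136 FPKM in KO spleens (log2 difference -3.44, SE 0.27, adjusted p = 1.88e-04). Igha, of IgA, had 1444, 1111 and 1354 FPKM in KO lungs, against 11688, 12427 and 10321 FPKM in KO spleens (log2 difference -3.14, SE 0.25, adjusted p = 2.00e-04). Ighm, of IgM, had 182, 211 and 209.9 FPKM in KO lungs, against 4572, 3985 and 2575 FPKM in KO spleens (log2 difference -4.17, SE 0.22, adjusted p = 5.59e-05). In KO lungs Igha thus stood above Ighm per length, and in KO spleens too. The IgG genes varied more between lungs. Ighg2b had 17.9, 8.09 and 98.5 FPKM in KO lungs, against 817, 492 and 789 FPKM in KO spleens (log2 difference -4.80, SE 0.55, adjusted p = 7.87e-04). Ighg2c had 13.9, 12.2 and 126 FPKM in KO lungs, against 719, 475 and 456 FPKM in KO spleens (log2 difference -4.27, SE 0.73, adjusted p = 0.0038). Ighg1 had 6.27, 0.483 and 20.2 FPKM in KO lungs, against 194, 92.3 and 72.8 FPKM in KO spleens (log2 difference -4.70, SE 0.95, adjusted p = 0.0073). Ighg3 had 0.310, 1.03 and 1.11 FPKM in KO lungs, against 438, 706 and 171 FPKM in KO spleens (log2 difference -8.83, SE 0.53, adjusted p = 8.06e-05). KO lung 3 was the highest lung in all 4 of them. The remaining constant genes gave log2 differences of -3.54 for Iglc1, -3.31 for Iglc2, -2.81 for Iglc3 and -2.21 for Ighd, and Ighe was listed at 0 in every KO lung. Variable gene lists, also added after the data were seen, were lower in 100 of 102 heavy chain, 96 of 97 kappa and 104 of 123 T cell receptor genes.

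T cell genes were lower in 17 of 18 cases, by less than B cell genes in median (-1.89). Cd3e, a chain of the T cell receptor complex, had 11.6, 12.4 and 14.4 FPKM in KO lungs, against 47.0, 62.0 and 37.9 FPKM in KO spleens (log2 difference -1.91, SE 0.18, adjusted p = 4.11e-04). Lck, the kinase that acts on that complex, had 13.3, 14.0 and 14.8 FPKM in KO lungs, against 60.3, 85.9 and 60.2 FPKM in KO spleens (log2 difference -2.26, SE 0.14, adjusted p = 7.89e-05). Il7r, the interleukin 7 receptor of naive and memory T cells, missed the fold threshold, with 13.9, 11.6 and 11.3 FPKM in KO lungs, against 24.3, 25.3 and 19.1 FPKM in KO spleens (log2 difference -0.89, SE 0.12, adjusted p = 0.0013). Of the lymphocyte lists, NK and cytotoxic genes came closest to equal levels, with a median of -0.27. In that list 3 of 13 were lower and none was higher, beside 17.3% and 23.4% of all tested genes. Gzma, a granule protease, had 52.3, 69.6 and 58.7 FPKM in KO lungs, against 36.6, 47.1 and 47.5 FPKM in KO spleens (log2 difference 0.46, SE 0.09, adjusted p = 0.0076). Klrd1, the CD94 receptor, had 17.2, 17.3 and 16.4 FPKM in KO lungs, against 21.9, 37.2 and 28.4 FPKM in KO spleens (log2 difference -0.75, SE 0.16, adjusted p = 0.0085). Both stayed under the fold threshold, on opposite sides of 0.

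**Figure D4:**
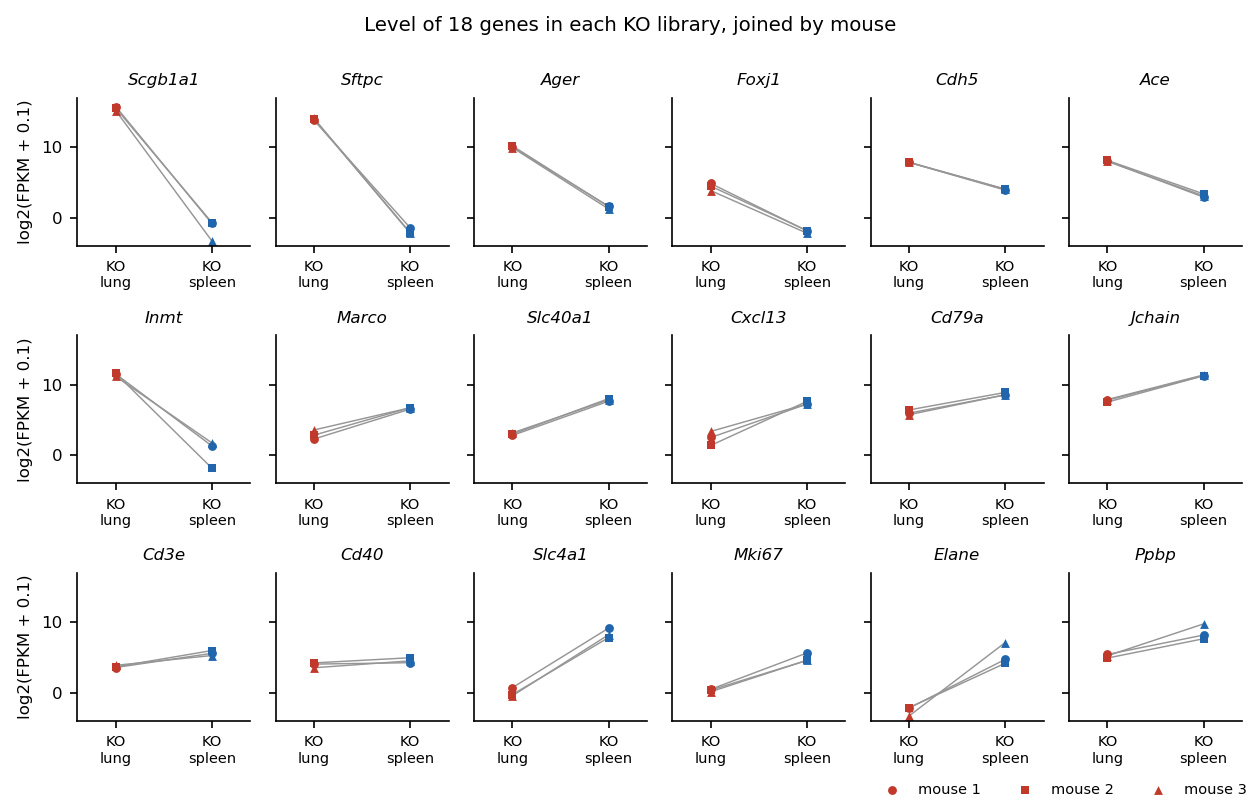
Level of 18 genes (panels) in each KO lung and KO spleen as log2(FPKM + 0.1), with each line joining the 2 tissues of a mouse and symbols for mice 1, 2 and 3. Lines fall from lung to spleen for the epithelial, endothelial and Inmt panels and climb for the others, least for Cd40, whose values stay between 11.3 and 30.5 FPKM.

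The study's question turns on CD40, through which T cells that carry CD40 ligand activate B cells. Cd40 had 16.2, 18.3 and 11.3 FPKM in KO lungs, against 18.7, 30.5 and 22.4 FPKM in KO spleens (log2 difference -0.64, SE 0.16, adjusted p = 0.0176), so that every KO lung lay below every KO spleen by less than the fold threshold. Its ligand gene Cd40lg, named for that question, had 2.38, 0.875 and 1.80 FPKM in KO lungs, against 3.85, 5.10 and 3.98 FPKM in KO spleens (log2 difference -1.4, SE 0.36, adjusted p = 0.0168). Against 16 of 17 B cell genes called lower, 13 of 15 CD40 and B7 family genes were (median -1.89), and the exceptions were Cd40 and Cd274, the PD-L1 gene, with 6.08, 6.98 and 8.60 FPKM in KO lungs, against 13.4, 14.8 and 12.5 FPKM in KO spleens (log2 difference -0.91, SE 0.16, adjusted p = 0.0036). Cd86, a costimulatory ligand on B cells and dendritic cells, had 4.0, 3.68 and 4.49 FPKM in KO lungs, against 43.5, 49.9 and 41.5 FPKM in KO spleens (log2 difference -3.44, SE 0.14, adjusted p = 2.69e-05). Icosl, the ligand of ICOS, had 14.8, 16.9 and 16.9 FPKM in KO lungs, against 39.0, 57.5 and 36.9 FPKM in KO spleens (log2 difference -1.43, SE 0.14, adjusted p = 4.41e-04). Cd86 had the lowest value of the 15 genes, and Cd40 the one nearest to 0. Without mouse 2 the log2 difference of Cd40lg was -0.89, under the fold threshold.

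Of 5 genes of the BAFF system, which keeps B cells alive, 3 were lower in KO lung and 1 was higher. Tnfrsf13c, the BAFF receptor, had 3.85, 6.17 and 3.01 FPKM in KO lungs, against 29.1, 46.1 and 29.4 FPKM in KO spleens (log2 difference -3.0, SE 0.12, adjusted p = 2.88e-05). The ligand gene Tnfsf13b, BAFF itself, was higher, with 15.0, 13.8 and 16 FPKM in KO lungs, against 4.69, 8.68 and 5.27 FPKM in KO spleens (log2 difference 1.30, SE 0.22, adjusted p = 0.0035). Receptor and ligand thus lay on opposite sides in all 3 mice. Among NF-κB pathway genes 7 of 15 were lower (median -0.90), a count that fell to 4 with values rescaled to an equal sum per library. Nfkb2, a subunit of the arm that CD40 and BAFF receptors use, had 12.2, 12.7 and 13.5 FPKM in KO lungs, against 35.5, 46.6 and 34.1 FPKM in KO spleens (log2 difference -1.58, SE 0.13, adjusted p = 2.16e-04). Rela, the widely used p65 subunit, had 48.1, 49.0 and 45.8 FPKM in KO lungs, against 39.4, 43.7 and 34.9 FPKM in KO spleens (log2 difference 0.28, SE 0.09, adjusted p = 0.0383). Nfkbia, its inhibitor, had 192, 178 and 171 FPKM in KO lungs, against 143, 121 and 111 FPKM in KO spleens (log2 difference 0.53, SE 0.09, adjusted p = 0.0042). Rela and Nfkbia stood above the spleens in all 3 KO lungs and under the fold threshold.

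MHC class II genes, carried by B cells and dendritic cells, were lower in 9 of 11 cases (median -1.65). Cd74, the invariant chain, had 1396, 1602 and 1478 FPKM in KO lungs, against 3591, 4374 and 3526 FPKM in KO spleens (log2 difference -1.36, SE 0.19, adjusted p = 0.0018). H2-Oa, a peptide loading chain found mainly in B cells, had 14.3, 18.6 and 12.6 FPKM in KO lungs, against 89.4, 114 and 89.5 FPKM in KO spleens (log2 difference -2.69, SE 0.09, adjusted p = 2.01e-05). H2-Oa differed more than Cd74 in each mouse, and without mouse 2 the adjusted p of Cd74 was 0.0665. Fc receptor genes were lower in 6 of 10 cases and higher in 1. Fcer1g, the signaling chain that several Fc receptors share, had 63.9, 87.0 and 80.0 FPKM in KO lungs, against 163, 171 and 232 FPKM in KO spleens (log2 difference -1.29, SE 0.13, adjusted p = 4.82e-04). The higher one was Pigr, which carries IgA and IgM across epithelium, at 15.1, 7.65 and 6.38 FPKM in KO lungs, against 0.238, 0.203 and 0.248 FPKM in KO spleens (log2 difference 4.80, SE 0.29, adjusted p = 8.28e-05).

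Chemokine genes lay on both sides, 7 of 23 higher and 8 lower, beside 23.4% and 17.3% of all tested genes (list median -0.04). This median changed sign with a pseudocount of 0.01 (0.04), with values rescaled to an equal sum per library (0.24) and without mouse 1 (0.62). Cxcl12, which holds plasma cells and stem cells in place, had 65.9, 72.0 and 82.9 FPKM in KO lungs, against 272, 288 and 322 FPKM in KO spleens (log2 difference -2.0, SE 0.09, adjusted p = 3.34e-05). Ccl6, made by macrophages, was higher, with 131, 132 and 162 FPKM in KO lungs, against 32.5, 33.6 and 39.7 FPKM in KO spleens (log2 difference 2.0, SE 0.08, adjusted p = 2.89e-05). Ccl5, made by T and NK cells, had 94.5, 114 and 111 FPKM in KO lungs, against 142, 185 and 209.7 FPKM in KO spleens (log2 difference -0.73, SE 0.11, adjusted p = 0.0019), under the fold threshold although the tissues did not overlap.

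Integrin subunits, the family of the deleted gene, were divided: 8 of 26 were higher in KO lung and 7 lower, beside 23.4% and 17.3% of all tested genes. Their median of 0.13 turned to -0.03 when immunoglobulin and globin genes were left out of the scale. Itgb1, the shared β1 chain, had 209, 216 and 228 FPKM in KO lungs, against 93.8, 104 and 108 FPKM in KO spleens (log2 difference 1.10, SE 0.09, adjusted p = 2.17e-04). Itga3, Itga8, Itga1, Itga5, Itga7 and Itgb4, partners of epithelium, mesenchyme and matrix, were higher by 3.54, 2.92, 1.85, 1.56, 1.65 and 2.24 on the log2 scale. Itgb6, of the epithelial integrin that activates TGF-β, had 5.24, 6.21 and 4.61 FPKM in KO lungs and was listed at 0 in all 3 KO spleens. Lower were Itgb3 and Itga2b, given above, Itga4 and Itgb7, the homing pair of lymphocytes, with log2 differences of -1.63 and -1.33, and Itga11 with -2.05. Itgb2, the β2 chain of leukocytes, was lower as well, with 49.0, 58.3 and 67.9 FPKM in KO lungs, against 112, 135 and 119 FPKM in KO spleens (log2 difference -1.07, SE 0.11, adjusted p = 5.70e-04). The largest decrease of an integrin was that of Itgad, the αD chain of red pulp macrophages, with 0.166, 0.333 and 0.368 FPKM in KO lungs, against 42.0, 41.6 and 44.4 FPKM in KO spleens (log2 difference -6.82, SE 0.20, adjusted p = 1.59e-05). Itgav, the other partner of β3, had 12, 11.6 and 11.8 FPKM in KO lungs, against 8.67, 10.7 and 6.56 FPKM in KO spleens (log2 difference 0.48, SE 0.16, adjusted p = 0.0462), and KO lungs stood above KO spleens by less than the fold threshold. Itgb2 did not pass the fold threshold when values were rescaled to an equal sum per library or quantile normalized, and Itgb1 did not when immunoglobulin and globin genes were left out of the scale. The other uncalled subunits had log2 differences of 0.86 (Itgb5), -0.93 (Itgal), -0.77 (Itgax), 0.82 (Itga2), 0.79 (Itgb8), 0.12 (Itga6), 0.14 (Itga9), -0.04 (Itgam), -0.13 (Itgae) and 0.01 (Itga10).

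Clock output genes were higher in KO lung in 10 of 13 cases (median 2.16). Dbp, a factor that rises and falls over the day, had 108, 150.4 and 145 FPKM in KO lungs, against 26.0, 27.8 and 36.2 FPKM in KO spleens (log2 difference 2.16, SE 0.12, adjusted p = 5.59e-05). Nr1d1, a repressor of the clock, had 44.4, 59.6 and 69.6 FPKM in KO lungs, against 9.38, 11.7 and 16.7 FPKM in KO spleens (log2 difference 2.21, SE 0.10, adjusted p = 3.52e-05). Bmal1, the activator that Nr1d1 represses, was the member that was lower, with 2.0, 1.58 and 1.92 FPKM in KO lungs, against 6.98, 7.20 and 5.50 FPKM in KO spleens (log2 difference -1.78, SE 0.19, adjusted p = 5.67e-04). The time of day of collection is not given in the sources used here. Of 14 immediate early genes 5 were higher and none was lower, beside 23.4% and 17.3% of all tested genes. Jun was among the 5, with 137, 112 and 124 FPKM in KO lungs, against 39.8, 14.5 and 14.8 FPKM in KO spleens (log2 difference 2.60, SE 0.26, adjusted p = 4.52e-04). Of 9 heat shock genes 1 was higher and none was lower, beside the same shares. This gene was Hspb1, with 119, 104 and 138 FPKM in KO lungs, against 30.9, 19.4 and 36.6 FPKM in KO spleens (log2 difference 2.09, SE 0.13, adjusted p = 8.30e-05). Without mouse 1, 7 immediate early genes were higher, and 2 heat shock genes were higher and 1 lower.

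Within a tissue the 3 mice differed little for most genes. Over genes with a mean of at least 10 FPKM, the median range of the 3 libraries was 0.22 on the log2 scale in KO lungs (6748 genes) and 0.33 in KO spleens (6533 genes). The range passed 2 in 71 genes in KO lungs and in 80 in KO spleens. KO lung 3 alone stood above the other lungs by over 2, with those within 1 of each other, in 32 genes, and KO spleen 3 alone stood above the other spleens in this way in 25.

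The skeletal muscle list summed to 3.78, 7.84 and 1163 FPKM over the KO lungs and 13.0, 10.8 and 10.2 FPKM over the KO spleens. Ckm, muscle creatine kinase, had 0.785, 1.62 and 102 FPKM in KO lungs, against 0.0490, 0.0272 and 0.0648 FPKM in KO spleens (log2 difference 5.2, SE 1.26, adjusted p = 0.014), and 2 of 6 members were called higher, although Ckm was not without mouse 2 (adjusted p = 0.0536). Acta1, skeletal actin, was listed at 0 in KO lungs 1 and 2. The cardiac list summed to 91.3, 252 and 429 FPKM in KO lungs and 13.1, 18.1 and 16.6 FPKM in KO spleens, and 10 of 10 were called higher. Among them was Myh6, a heart muscle myosin that the muscle sleeves of pulmonary veins share. Myh6 had 3.6, 13.4 and 32.7 FPKM in KO lungs and was listed at 0 in all 3 KO spleens. The part of these muscle transcripts in other differences was not tested. Ubb, a polyubiquitin gene, was low in KO lungs 1 and 2, with 4.97, 4.52 and 678 FPKM in KO lungs, against 788, 733 and 806 FPKM in KO spleens (log2 difference -4.95, SE 1.42, adjusted p = 0.0253). KO lung 3 stood near the spleens. Without mouse 1 the adjusted p of Ubb was 0.12 and without mouse 2 it was 0.157.

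The exocrine pancreas list summed to 7.92, 5.59 and 4.11 FPKM in KO lungs, against 30.1, 272 and 20.6 FPKM in KO spleens. Of its members 2 of 16 were called lower, beside 17.3% of all tested genes. Ctrb1, a chymotrypsinogen, had 0.762, 0.409 and 0.548 FPKM in KO lungs, against 0.996, 43.5 and 0.521 FPKM in KO spleens (adjusted p = 0.174), so that KO spleen 2 alone stood apart. KO spleen 3 alone held gland transcripts: Mucl2, a mucin-like protein, and Scgb1b27, a salivary secretoglobin, were listed at 0, 0 and 660.0 FPKM and 0, 0 and 121 FPKM in KO spleens. The adipocyte list summed to 89.5, 38.9 and 107 FPKM in KO lungs, against 91.0, 32.8 and 210.1 FPKM in KO spleens, with 5 of 8 members lower and 2 higher. Adipoq, the adipocyte hormone adiponectin, had 7.17, 0.107 and 1.75 FPKM in KO lungs, against 13.9, 3.44 and 28.4 FPKM in KO spleens (log2 difference -3.0, SE 0.63, adjusted p = 0.0084), and mouse 2 had the lowest value in both tissues. Without mouse 2 only 1 adipocyte gene was called lower, and the adjusted p of Adipoq was 0.0649. Whether these transcripts bear on other differences was not tested.

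The same comparison in WT mice gave 3653 of 15815 genes higher in lung (23.1%) and 3050 lower (19.3%), with a median difference of -0.10. Over 15570 genes tested in both, 3203 were higher in KO and in WT mice (88.6% of the 3614 KO calls and 88.9% of the 3602 WT calls), and 2270 were lower in both (84.7% of 2681 and 76.1% of 2983). A test of the difference, the tissue by genotype interaction over 12 libraries and 16133 genes, called 18 genes (0.112%) in which lung minus spleen was larger in KO mice and 7 (0.0434%) in which it was smaller. Without an adjustment, p was below 0.05 in 2233 and 1049 genes. The median interaction over all genes was 0.12. Calls in opposite directions in KO and WT mice were made in 3 genes.

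**Figure D5:**
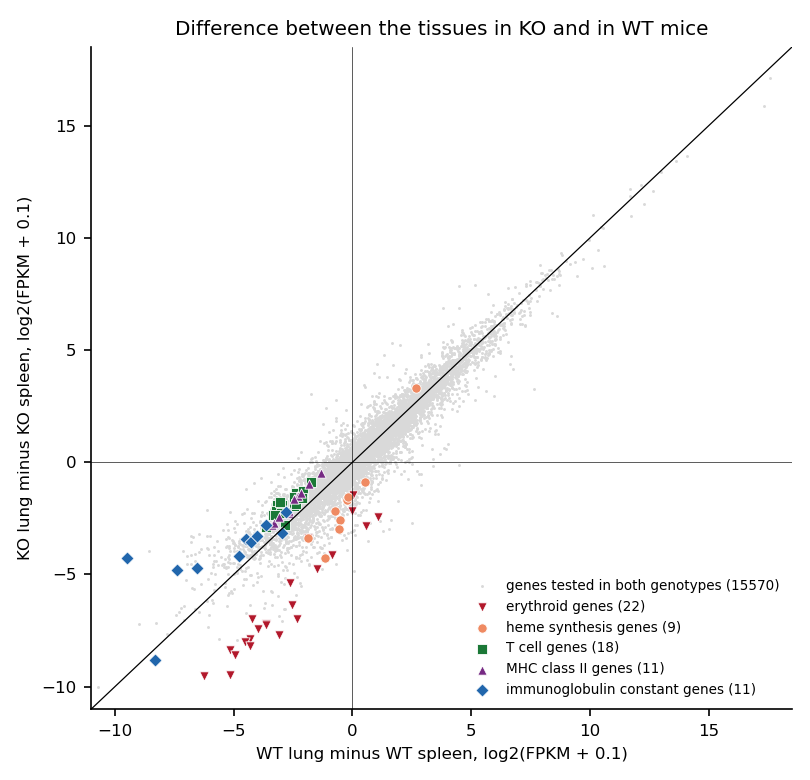
Log2 difference of lung minus spleen in KO mice (vertical axis) and in WT mice (horizontal axis) for each gene tested in both. The line is that of equality, and symbols mark members of the erythroid, heme synthesis, T cell, MHC class II and immunoglobulin constant lists. Most genes lie along the line. By list median, erythroid and heme synthesis genes lie below it, and T cell, MHC class II and immunoglobulin constant genes above it.

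Genes of the pre-B cell receptor had the largest interactions. Igll1, its surrogate light chain, had 0.0505, 0 and 0 FPKM in KO lungs, against 0.0632, 0 and 0 FPKM in KO spleens. In WT mice Igll1 had 0.181, 0 and 0.0571 FPKM in WT lungs, against 34.2, 32.7 and 21.6 FPKM in WT spleens (interaction 7.43, SE 0.46, adjusted p = 0.0051). Vpreb1a, the partner chain, had 0.299, 0.0844 and 0.261 FPKM in KO lungs, against 0, 0.0686 and 0.0673 FPKM in KO spleens. In WT mice Vpreb1a had 0.120, 0.454 and 0.231 FPKM in WT lungs, against 18.9, 28.3 and 19.9 FPKM in WT spleens (interaction 7.09, SE 0.52, adjusted p = 0.0095). The WT spleens thus stood above every other library in both genes, and the spleens of the KO mice lay near 0. In WT mice Jchain, given above for KO mice, had 3.92, 4.22 and 14.2 FPKM in WT lungs, against 679.5, 667 and 771 FPKM in WT spleens. The lung minus spleen difference of Jchain was -3.57 in KO mice and -6.81 in WT mice (interaction 3.24, SE 0.41, adjusted p = 0.0475), and all KO libraries lay above all WT libraries of the same tissue. The interaction of Jchain was not called when any of KO mice 1, 2 and 3 or of WT mice 1 and 2 was left out (adjusted p from 0.0583 to 0.185). Without WT mouse 3 the adjusted p of Vpreb1a was 0.0808, and with a pseudocount of 0.01 those of Igll1, Vpreb1a and Jchain were 0.0523, 0.0528 and 0.0523.

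Beyond single calls, the lists moved to both sides of the all-gene interaction median of 0.12. Erythroid genes had a median interaction of -3.46, with a median lung minus spleen difference of -7.10 in KO mice and -3.37 in WT mice, and none of the 22 was called after adjustment. The globin share of KO spleens, 11.3 to 20.7% of the FPKM, lay above that of WT spleens, 1.49 to 5.84%. Platelet genes had a median interaction of -1.16 and neutrophil granule genes of -1.64, also with no gene called. On the other side, T cell genes had 0.87, MHC class II genes 0.78, NK and cytotoxic genes 0.76 and B cell genes 0.50, where none was called either. Unadjusted limma p was below 0.05 with a positive interaction in 15 of 18, 11 of 11, 8 of 13 and 10 of 17, respectively. With a negative interaction it was so in 20 of 22 erythroid, 10 of 18 platelet and 6 of 15 neutrophil granule genes. None of these 7 lists had such a gene on the other side, but other lists did. Of 12 immunoglobulin constant genes (median interaction 0.74), 6 were positive and 1 negative at that p. Of 13 plasma cell genes (median 0.28) 5 were positive and 3 negative. Of 15 monocyte and dendritic cell genes (median 0.25) 6 were positive and 2 negative. Over all 16133 genes the counts were 2233 positive and 1049 negative. Genes of a list do not vary independently. Immunoglobulin genes took 12.8 to 13.8% of the FPKM in KO spleens and 6.01 to 6.77% in WT spleens. In lungs they took 1.12 to 1.67% in KO mice and 0.274 to 0.36% in WT mice. The B cell list summed to 1753 to 2570 FPKM in KO spleens and 3281 to 3440 FPKM in WT spleens. In lungs it summed to 288 to 431 FPKM in KO mice and 342 to 472 FPKM in WT mice. The surfactant and type 2 cell list had 0.07 and the pan-endothelial list -0.09, close to the median of all genes. Cd40 had a lung minus spleen difference of -0.64 in KO mice and -1.52 in WT mice (interaction 0.88, SE 0.20, adjusted p = 0.101).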

How the data were processed

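RNA was measured in lung and spleen of 3 KO and 3 WT mice, 12 libraries in all. According to the methods the reads were trimmed with Trimmomatic, aligned to GRCm39 with HISAT2 and counted with featureCounts, with no versions given. The methods name TRIzol for the RNA, whereas the labels name a column kit. The authors deposited FPKM values, 1 table per library, and the tool that made the FPKM is not given in the sources used here. Lung and spleen tables were made separately: 22479 features were listed for lung and 22562 for spleen, and 1 assembled model whose number occurs in both was left out. No counts were used, so the depth behind each value is unknown and neither counting intervals nor a count model could be had.

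Names came from GENCODE vM39 for 22112 of 22116 identifiers. Genes with at least 0.1 FPKM in at least 3 of the 6 libraries were fitted with limma 3.58.1 (trended variance, two-sided) in R 4.3.3 on log2(FPKM + 0.1), with the mouse as a block, a pseudocount that understates changes of low genes. The methods state that both tissues came from the same individual mice. Deviations of same-numbered lung and spleen libraries from their group means correlated at 0.07, 0.07 and 0.15 over genes, against -0.09 to 0.02 for other pairs. Deviations from a mean of 3 libraries sum to 0, so a positive value for 1 pair pushes those of other pairs down. The contrast is therefore no independent check of the pairing. The 3 mice per group limit the precision, and each library is 1 mouse. The fit was tested on simulated data. For KO lung against KO spleen, 30 of 50 changed genes were called at a size of 1.5. At a size of 4, 50 of 50 were called, and there were 5 false calls. For the interaction, 31 of 50 were called at 1.5 and 50 of 50 at 4, with 6 false calls.

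Genes named in the text were Itgb3, the 12 largest DEGs each way without overlap and with at least 10 FPKM (immunoglobulin and T cell receptor segments and unnamed models left out), up to 6 members of each list with the highest mean level plus those on the other side or short of a call, all integrins and immunoglobulin constant genes, the 10 largest interactions (with the same omissions) and the 10 genes of widest range in each tissue. Atp6v0d2, Siglecf, Bmpr2, Edn1, Bpifa1, Cd5l, Cr2, H2-Oa, Hc, Mki67, Napsa, Tfrc and Cd40lg fell outside this rule and were named after their values were seen, and some members are not reported here. The members and lists were chosen with earlier results of these data known, and the lists of variable genes, ribosomal protein genes and mitochondrially encoded genes after the data were seen. Promoters and motif shares came from RefSeq windows of GRCm38.p6. Alternatives were other pseudocounts, filters, scalings, variance settings and thresholds, the fit without the block, and each mouse left out.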

Additional observations from a re-analysis of the deposited data

Results flagged for a closer look

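The difference between lung and spleen was itself different in KO and WT mice in 10 genes chosen by size among those past the test of the tissue by genotype interaction (limma, 12 libraries, mouse as a block, adjusted p below 0.05), with genotype and source of the mice not to be told apart. The WT spleens alone stood apart in Igll1 (interaction 7.43, SE 0.46, adjusted p = 0.0051), Vpreb1a (interaction 7.09, SE 0.52, adjusted p = 0.0095), Vpreb1b (interaction 4.32, SE 0.39, adjusted p = 0.0201), Umod (interaction 4.85, SE 0.44, adjusted p = 0.0201) and Tmem132e (interaction 4.28, SE 0.43, adjusted p = 0.0272). They also stood apart in Rps18-ps6 and Acsbg1, given below. Vpreb1b, the near-identical copy of Vpreb1a, may share reads with it and is uncertain as a separate gene. Umod, uromodulin of the kidney, had 0 in all 3 KO lungs, against 0.0183, 0 and 0.0323 FPKM in KO spleens. In WT mice Umod had 0 in all 3 WT lungs, against 2.48, 4.79 and 2.87 FPKM in WT spleens. Tmem132e, a membrane protein, had 0.0129, 0 and 0.0495 FPKM in KO lungs, against 0.0250, 0.0240 and 0.0545 FPKM in KO spleens. In WT mice Tmem132e had 0.0243, 0 and 0 FPKM in WT lungs, against 2.09, 3.06 and 1.76 FPKM in WT spleens. In both genes the KO spleens lay with the lungs, near 0.

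Jchain had an interaction of 3.24 and is described with the plasma cell genes. Rps18-ps6, a pseudogene copy of a ribosomal protein gene whose reads may not be told from those of its parent, had 4.33, 5.83 and 3.81 FPKM in KO lungs, against 7.68, 8.21 and 6.97 FPKM in KO spleens. In WT mice Rps18-ps6 had 4.19, 3.26 and 2.97 FPKM in WT lungs, against 48.6, 56.5 and 49.6 FPKM in WT spleens (interaction 3.15, SE 0.20, adjusted p = 0.0051). Acsbg1, an acyl-CoA synthetase, had 1.68, 1.24 and 1.79 FPKM in KO lungs, against 2.21, 1.74 and 2.05 FPKM in KO spleens. In WT mice Acsbg1 had 0.901, 0.974 and 0.900 FPKM in WT lungs, against 5.22, 6.92 and 4.84 FPKM in WT spleens (interaction 2.13, SE 0.24, adjusted p = 0.0369). Specc1, a cytoskeletal protein, had 8.73, 9.02 and 7.60 FPKM in KO lungs, against 27.3, 16.1 and 20.3 FPKM in KO spleens. In WT mice Specc1 had 7.74, 4.48 and 5.99 FPKM in WT lungs, against 4.94, 1.84 and 2.35 FPKM in WT spleens (interaction -2.35, SE 0.27, adjusted p = 0.0378). Slc25a37, the mitochondrial iron importer of red cell precursors, had 15.5, 11.6 and 10.6 FPKM in KO lungs, against 290.2, 133 and 135 FPKM in KO spleens. In WT mice Slc25a37 had 14.8, 11.6 and 13.8 FPKM in WT lungs, against 61.2, 33.5 and 33.2 FPKM in WT spleens (interaction -2.19, SE 0.25, adjusted p = 0.0369). Leaving out KO mouse 1, 2 or 3 or WT mouse 2 kept the calls of Igll1, Vpreb1a and Rps18-ps6, and leaving out WT mouse 3 those of Igll1, Jchain and Rps18-ps6. Without WT mouse 1, 8 of the 10 genes were called, all but Acsbg1 and Jchain. Umod and Tmem132e were not called with a pseudocount of 0.01 (adjusted p = 0.0649 and 0.0748) or with a filter at 1 FPKM (0.0501 and 0.0544), nor was Vpreb1b with that filter (0.0540). Without the replicate block, Slc25a37 and Specc1 were not called (0.0533 and 0.0511). With a pseudocount of 1, without a filter and without a variance trend, Jchain, Slc25a37 and Specc1 were among those not called. What lies behind these differences was not tested.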

How the results depend on the processing

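Depth is unknown for FPKM values and 3 mice per group limit the precision. The counts of genes higher and lower in KO lung were 3724 and 2753. Under the other pseudocounts, filters, scalings and variance settings and without any mouse, they stayed within 1.5 times of these values. They were 2760 and 1988 with a pseudocount of 1, and 4486 and 2291 with values rescaled to an equal sum per library. Quantile normalization gave 3180 higher and 3364 lower, so that the larger side changed. Without 1 mouse, 3499 to 3760 were higher and 2477 to 2839 lower. No call turned round, and an absolute log2 difference above 2 left 2071 and 1261. Without the replicate block, that is, with lung and spleen of a mouse not paired, 3714 and 2728 were called, with Adipoq, Fabp4, Acta2 and S100a8 of the named genes losing their call. The interaction counts, 18 above and 7 below, were less stable: 10 and 2 with a pseudocount of 1, 8 and 0 without a filter, 50 and 22 rescaled to an equal sum per library (TPM), 8 and 0 without a variance trend, 11 below with sample weights, and 33 and 39 without the replicate block. Leaving out 1 mouse gave 3 to 14 above and 0 to 56 below, the 56 without WT mouse 1, and all 25 genes kept their direction in every setting. Of named genes not past the test, these changed sign: with TPM, Agtr1a 0.013, Itgae 0.13, Itgam 0.22 and Xbp1 0.11; with quantile normalization, Itga10 -0.70 and Rfx3 -0.21; with median-of-ratios scaling, Itga10 -0.0017; with immunoglobulin and globin genes left out of the scale, Itga10 -0.12, Itga6 -0.042, Itga9 -0.021 and Tcf21 -0.0034; and without 1 mouse, Itga10 from -0.042 to 0.093 and Itgam from -0.13 to 0.053. The causes were not tested. Counts within some lists moved by over 1.5 times, and those that follow are examples. Germinal centre genes had 3 lower of the 6 still tested with a filter at 1 FPKM, against 6 of 9. Mast cell genes had 6 lower with quantile normalization, against 3, and mitochondrially encoded genes 9 higher, against 3. NF-κB pathway genes had 4 lower with TPM, against 7. T cell receptor variable genes had 34 lower with a pseudocount of 1, against 104. Without mouse 3, ribosomal protein genes had 39 lower, against 65, pancreas genes 6, against 2, and skeletal muscle genes 3, against 0. Without mouse 2, 0 skeletal muscle genes were higher, against 2, and 1 adult globin gene was lower, against 4. Without mouse 1, 2 heat shock genes were higher, against 1. The median of neutrophil granule genes also moved, to -0.98 without mouse 3, against -1.77.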
